A study of Homo sapiens with 3 samples.

Results

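The genes described here were 9 pluripotency and stemness genes, POU5F1, NANOG, KLF4, SALL4, ZFP42, LIN28A, LIN28B, PROM1 and CD44, chosen by symbol through their Ensembl gene identifiers. All 9 had a row in each library, out of 27024 counted genes. Adjacent rows holding the same values in every library were counted once, which mattered only for POU5F1 among the 9, since its value stood on 7 rows. RNA-seq was performed on 22Rv1, an established human prostate carcinoma cell line, in 3 WT libraries numbered replicates 1 to 3. WT cells carried the intact prostate cancer risk enhancer in its non-risk form, and the labels named no drug treatment and no time point. The study compared such cells with enhancer KO and risk-allele cells, whose libraries were not analysed here, so the values below are levels in WT cells and no change between genotypes was computed. The methods described the controls as clones while the results described biological replicates, and p-values here measure only the spread between these 3 libraries, which may be technical.

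POU5F1 (also called OCT4) and NANOG are transcription factors that, together with SOX2, hold embryonic stem cells in the undifferentiated state, and KLF4 can help to reprogram somatic cells to that state. SALL4 and ZFP42 (also called REX1) are zinc-finger proteins of early embryonic and germ cells, and LIN28A and LIN28B are RNA-binding proteins that block maturation of the let-7 family of microRNAs. PROM1 (CD133) and CD44 are surface glycoproteins used to sort stem-like cells from tumors, including prostate tumors, although KLF4 and CD44 are also made by many differentiated epithelia.

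In WT cells 3 of the 9 genes, CD44, KLF4 and POU5F1, were expressed, a word used here for genes that reached 1 CPM (reads scaled to library size) in each library. That was 33.3% of the genes, against 63.9% of 19060 protein-coding genes and 47.7% of all 27024 genes. SALL4 was just below the threshold and LIN28A was far below it. NANOG, LIN28B, ZFP42 and PROM1 were at or under the detection floor, set at an average of 3 reads per library, or 9 reads in total. The last 3 of these were listed at 0 in every library, as were 16.3% of protein-coding genes. Values are the authors' normalized counts, in which 3 reads correspond to 2.37, 2.54 and 2.36 in replicates 1, 2 and 3. In a bulk library, fewer cells with a transcript and less transcript per cell cannot be told apart.

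**Figure D1:**
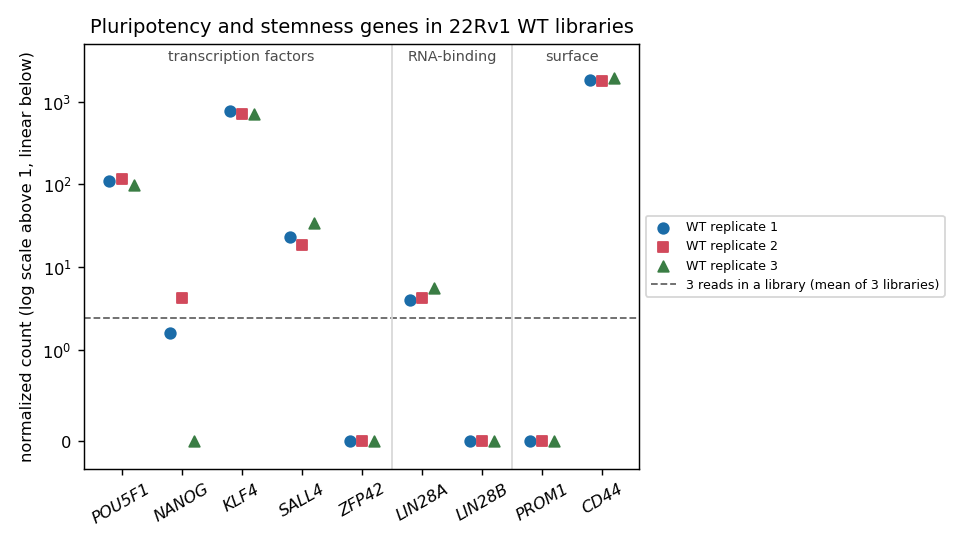
Normalized count of each of the 9 genes (y axis, log scale above 1 and linear below) in the 3 WT libraries (symbols), grouped by the kind of protein, with the dashed line at the value of 3 reads. CD44, KLF4 and POU5F1 stand far above the line, SALL4 stands between 18.6 and 33.9, LIN28A lies just above the line, NANOG crosses it, and ZFP42, LIN28B and PROM1 lie at 0.

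The libraries held 38252744, 35675670 and 38629080 reads on counted genes in replicates 1, 2 and 3, so that 3 reads came to between 0.0777 and 0.0841 CPM. Of the markers of prostate luminal cells 9 of 9 with a row were expressed, with a summed level of 101898 to 103120 normalized counts, while 0 of 4 basal markers were expressed, TP63, KRT5 and KRT14 being listed at 0. Markers of fibroblasts were expressed in 1 of 5 cases (COL1A1), of leukocytes in 1 of 4 (CD68) and of endothelium in 0 of 2. Of 8 markers of pluripotent and germ cells only POU5F1 was expressed. A listed 0 carries a limit of its own, because EIF4A1, a translation initiation factor that every cell uses, was also listed at 0 in all 3 libraries, although 0 of 76 ribosomal protein genes and 0 of 28 RNA polymerase subunit genes were. EIF4A1 shares 42.1% and 28.2% of its exon bases with 2 other annotated genes on the same strand, in an annotation that is not known to be the release the authors used.

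Among the transcription factors, POU5F1 (ENSG00000204531, GRCh37 chr6:31132114-31148508, minus strand, 5 exons) had 110.6, 115.1 and 96.8 normalized counts in replicates 1, 2 and 3, from 140, 136 and 123 reads. Its mean was 107.5 ± 9.54 (SD, n = 3), or 3.19 to 3.81 CPM, and replicate 3 was the lowest. A chi-square test against TMM library sizes did not show a difference between the 3 counts beyond counting noise, with a Benjamini-Hochberg adjusted p of 0.432 over the genes tested. Reads of POU5F1 are hard to place, since the gene has near-identical copies. POU5F1B matched 97.6% of the POU5F1 transcript at 97.7% identity, POU5F1P3 matched 76.7% at 98.0% and POU5F1P4 matched 77.0% at 97.1%. Together these copies were listed with 26, 23 and 21 reads in replicates 1, 2 and 3, that is 14.9% of the 469 reads on POU5F1 and its copies. How the authors' counting treated reads that match more than 1 copy is not stated, so part of either value may belong to the other. In addition, 8.64% of the exon bases of POU5F1 overlap TCF19, a gene on the opposite strand, and the strandedness of the counting is not stated.

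Among 16 genes of the POU family of homeodomain factors, POU5F1 ranked 4 by mean normalized count per kilobase of canonical transcript. On this per-length scale POU6F1 was at 432.1, POU2F1 (OCT1, a widely expressed octamer-binding factor) at 151.9, POU4F2 (a neuronal factor) at 137.3 and POU5F1 at 76.3. Of the 15 relatives 6 were expressed, among them POU3F2 (BRN2, a neural factor) at 47.4 per kilobase, and 9 were not. POU5F1 ranked 5, below POU3F2, with either the exon union or the coding length. It was thus neither the most nor the least abundant POU gene in these cells.

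NANOG (ENSG00000111704, GRCh37 chr12:7940390-7951742, plus strand) had 1.6, 4.2 and 0 normalized counts, from 2, 5 and 0 reads. Only replicate 2 held more than 3 reads, and the 7 reads in all do not exceed the floor summed over the 3 libraries. NANOGP8, a copy of NANOG elsewhere in the genome that matched 36.3% of the NANOG transcript at 99.3% identity, was listed with 2, 5 and 6 reads. The copy therefore held as many reads as NANOG or more in each library, and neither was expressed at the threshold used.

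The promoter of NANOG is shown because NANOG is a direct target of POU5F1 and SOX2 in stem cells, and its upstream sequence carries the letters that this pair of factors is known to bind. The sequence is the 250 bases before the annotated start, from the RefSeq promoter table (GRCh38.p14, chr12:7789152-7789401, plus strand), written 5′ to 3′, and the capitals mark an octamer core and a SOX site side by side.
NANOG promoter: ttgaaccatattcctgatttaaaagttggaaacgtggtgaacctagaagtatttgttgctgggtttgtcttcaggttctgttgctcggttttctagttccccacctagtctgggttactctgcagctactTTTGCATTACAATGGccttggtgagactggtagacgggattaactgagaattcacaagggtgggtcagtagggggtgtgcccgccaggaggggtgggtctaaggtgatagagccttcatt
The run in capitals is 15 bases long and its first base lies 120 bases before the start. It was found by searching both strands of each window for CCATTGTNATGCAAA, which joins the SOX site CCATTGT and the octamer core ATGCAAA, so that a window with the joined run also counts for each of its parts. Only 2 of 35116 promoter windows of the same length held the joined run, while 3.94% held the octamer core and 2.62% held the SOX site. Among the 6 of 9 genes with an entry in the table, NANOG was the only one with either motif. POU5F1, LIN28A and SALL4 had no entry. Such a match describes letters only. In these libraries POU5F1 was expressed, by gene-level counts that do not tell its isoforms apart. SOX2 had 0.8, 11.8 and 12.6 normalized counts from 1, 14 and 16 reads, low in replicate 1. It was not expressed at the threshold (SOX2 is given here after its values were seen). Any link of these levels to that of NANOG was not tested.

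KLF4 (ENSG00000136826, GRCh37 chr9:110247133-110252763, minus strand) was the most abundant of the 5 transcription factors. It had 775.1, 715.9 and 715.6 normalized counts from 981, 846 and 909 reads, with a mean of 735.5 ± 34.3 (SD, n = 3). Replicate 1 was the highest, but the chi-square test did not show a difference beyond counting noise (adjusted p = 0.203). Per kilobase, KLF4 was at 250.5, with a range of 243.7 to 264.0 over the libraries that did not overlap that of POU5F1, from 68.7 to 81.7. The ratio of their means was 3.28. An unnamed lncRNA on the opposite strand covers 9.75% of the exon bases of KLF4.

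Krüppel-like factors are zinc-finger proteins that bind GC-rich promoter elements, and several can replace each other in reprogramming. Of 16 relatives of KLF4, 13 were expressed, which is 81.2% against 63.9% of protein-coding genes. KLF4 ranked 6 of the 17 genes per kilobase of canonical transcript or of exon union, and 10 of 17 per kilobase of coding length. On the canonical length those above it were KLF16 at 599.2, KLF15 at 492.7, KLF3 at 369.6, KLF10 at 355.0 and KLF5 at 294.3 per kilobase. KLF5, which opposes or replaces KLF4 in several epithelia and also maintains stem cells, was 1.17 times as abundant as KLF4 per kilobase, with ranges over the libraries that did not overlap. KLF2, the relative used in its place in naive stem cells, was lower at 46.7 per kilobase, and KLF17, a factor of the early human embryo, was listed at 0.

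SALL4 (ENSG00000101115, GRCh37 chr20:50398870-50419060, minus strand) was the gene closest to the threshold. It had 22.9, 18.6 and 33.9 normalized counts, from 29, 22 and 43 reads, with a mean of 25.1 ± 7.89 (SD, n = 3). In CPM these were 0.758, 0.616 and 1.12, so only replicate 3 passed 1 CPM. Replicate 3 was the highest, with an adjusted p of 0.101 for a difference between libraries (chi-square test across all genes). Its coefficient of variation was 31.4%, near the median of 27.2% for 933 genes with a mean read count within 1.5-fold of that of SALL4. With each library left out in turn the number of expressed genes was 3 of 9, and a threshold of 0.5 CPM added SALL4 to make 4.

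SALL proteins repress transcription by recruiting the NuRD complex, a chromatin remodeler that contains histone deacetylases. All of the 13 NuRD subunit genes on the list were expressed, against 63.9% of protein-coding genes. The highest per kilobase were HDAC1 (a histone deacetylase) at 5292, RBBP7 (a histone-binding subunit) at 2901 and MTA2 (a scaffold subunit) at 2056. The lowest was MTA3 at 117.4. These RNA levels do not show whether the complex was assembled. Of the SALL genes, only SALL2 was expressed, with 46.0 normalized counts per kilobase against 4.82 for SALL4, a ratio of 9.53 with ranges that did not overlap. SALL1 and SALL3 were listed at 0. SALL4 was thus low in cells that expressed the listed NuRD subunit genes, and it was second to SALL2 in its family.

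ZFP42 (ENSG00000179059, GRCh37 chr4:188916925-188926200, plus strand), a marker of naive pluripotency that arose from a copy of YY1, was listed at 0 in all 3 libraries. Over the 112557494 reads of the 3 libraries, a count of 0 allows up to 0.0267 CPM, for counting error only. No other annotated gene overlaps ZFP42. Its relative YY1, a ubiquitous zinc-finger factor, was at 884.9 and YY2 at 86.3 normalized counts per kilobase, both expressed, so within this family only ZFP42 was without reads.

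**Figure D2:**
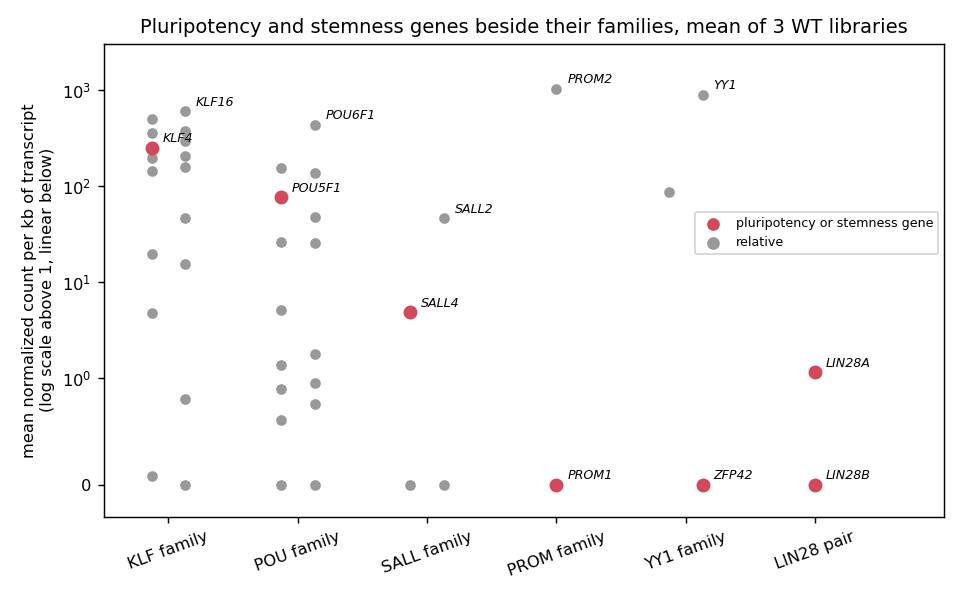
Mean normalized count per kilobase of canonical transcript over the 3 WT libraries (y axis, log scale above 1 and linear below) for the 7 pluripotency or stemness genes that have relatives on the lists (red) and for those relatives (grey), by family; points are spread sideways only to be seen. On this length KLF4 ranks 6 of 17 and POU5F1 4 of 16 in their families, SALL4 lies below SALL2, and PROM1, ZFP42 and LIN28B lie at 0 while PROM2 is at 1028 and YY1 at 884.9.

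The promoters of KLF4, ZFP42 and CD44 are shown together because these genes span the range from 0 to the highest level and have upstream sequence richer in CpG dinucleotides than the median promoter. No methylation was measured here. The sequences are the 250 bases before the start from the RefSeq promoter table (GRCh38.p14), written 5′ to 3′ on the strand of the gene, with CpG dinucleotides in capitals. They lie at chr9:107489770-107490019 on the minus strand for KLF4, at chr4:187995521-187995770 on the plus strand for ZFP42 and at chr11:35138921-35139170 on the plus strand for CD44.
KLF4 promoter: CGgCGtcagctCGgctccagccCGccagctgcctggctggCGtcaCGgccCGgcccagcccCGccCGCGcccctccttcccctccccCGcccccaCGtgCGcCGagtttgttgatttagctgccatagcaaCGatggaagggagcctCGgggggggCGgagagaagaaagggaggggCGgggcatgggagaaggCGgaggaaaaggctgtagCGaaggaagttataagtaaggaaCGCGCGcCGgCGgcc
ZFP42 promoter: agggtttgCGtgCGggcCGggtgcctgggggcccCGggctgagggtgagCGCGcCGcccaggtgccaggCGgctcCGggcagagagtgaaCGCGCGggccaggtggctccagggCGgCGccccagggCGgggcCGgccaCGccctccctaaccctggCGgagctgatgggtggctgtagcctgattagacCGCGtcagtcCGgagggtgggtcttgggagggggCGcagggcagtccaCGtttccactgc
CD44 promoter: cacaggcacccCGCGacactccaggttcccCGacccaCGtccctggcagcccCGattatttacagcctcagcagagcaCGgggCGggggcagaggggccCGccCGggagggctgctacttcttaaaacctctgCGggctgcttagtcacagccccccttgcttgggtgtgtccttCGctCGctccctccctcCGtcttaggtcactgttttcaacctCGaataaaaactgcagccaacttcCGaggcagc
These windows held 25 CpG dinucleotides for KLF4, 23 for ZFP42 and 15 for CD44, where the median of 35116 windows was 11 and NANOG had 4. KLF4, which was expressed, and ZFP42, which was listed at 0, thus had nearly equal counts. All 3 windows held at least 1 GC box (GGGCGG, searched on both strands), as did 42.6% of all windows, and none held an octamer core or a SOX site. Of the other genes listed at 0, LIN28B had 33 and 6 in its 2 windows and PROM1 had 13, 26, 17 and 5 in its 4.

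Of the RNA-binding proteins, LIN28A (ENSG00000131914, GRCh37 chr1:26737308-26756219, plus strand) had 4.0, 4.2 and 5.5 normalized counts, from 5, 5 and 7 reads, with a mean of 4.57 ± 0.81 (SD, n = 3). These values lie just above the floor in each library, at 1.89 times 3 reads on average, and the CPM of 0.131 to 0.182 is far below the threshold. LIN28B (ENSG00000187772, GRCh37 chr6:105384491-105531207, plus strand) was listed at 0 in all 3 libraries, and 3.05% of its exon bases overlap LIN28B-AS1 on the opposite strand. Neither LIN28 gene was therefore expressed, and the bound of 0.0267 CPM for a count of 0 over the libraries together applies to LIN28B as to ZFP42.

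LIN28 proteins bind the precursors of let-7 and direct their uridylation and decay, and let-7 in turn binds the transcripts of LIN28 and of several oncofetal genes. The mature let-7 microRNAs in the RefSeq table (GRCh38.p14) are shown by 3 of 8 names, with the seed, bases 2 to 8, in capitals, because the matches counted below are to this seed. A single position is given for each name, and any further copies are left out. It is chr9:94175962-94175983 (plus strand) for let-7a, chr9:94178841-94178862 (plus strand) for let-7d and chr3:52268336-52268357 (minus strand) for let-7g.
hsa-let-7a-5p: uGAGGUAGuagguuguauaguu
hsa-let-7d-5p: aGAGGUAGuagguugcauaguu
hsa-let-7g-5p: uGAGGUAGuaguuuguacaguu
All 8 names share 1 seed. Its match CTACCTC was present at 4 places in the 3′ UTR of LIN28B and at 1 place in those of LIN28A and SALL4, while the other 6 genes described here had none. Of 19403 protein-coding transcripts, 9.79% had 1 or more such matches and 1.14% had 2 or more. These shares were not matched for 3′ UTR length, whose median was 1068 bases. LIN28B had 4549, LIN28A 3270 and SALL4 1934 bases, and NANOG, with 4051 bases, had no match. A match is a description of letters and not a measured site. Let-7 itself was not measured, as 9 let-7 hairpin genes with a row were all listed at 0 in these libraries of long RNA. In addition 2 transcripts that host let-7 hairpins had reads, namely MIRLET7BHG with 1140, 1129 and 1266 reads and MIRLET7DHG with 89, 117 and 93 reads in replicates 1, 2 and 3 (both given after their values were seen).

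Of the genes listed around LIN28, 16 of 16 were expressed, against 63.9% of protein-coding genes. Their median was 392.4 normalized counts per kilobase, against 98.0 over protein-coding genes and 315.1 over expressed genes. Of the factors that make microRNAs, TARBP2 (a partner of DICER1) was at 749.1 and XPO5 (the exporter of microRNA precursors) at 626.1 per kilobase. The processing enzymes DROSHA, at 383.9, and DICER1, at 393.4 per kilobase, were close to the median of the list. TUT4 and TUT7, the uridyltransferases that act with LIN28, were at 357.8 and 128.8 per kilobase, and DIS3L2, the nuclease that follows them, was at 399.4. These transcripts, several of which serve microRNAs in general and not let-7 alone, were therefore present in cells where those of LIN28A and LIN28B were near the floor or listed at 0. The oncofetal genes of the list, all with let-7 matches, were also expressed. Their 3′ UTRs, from 1347 bases in HMGA1 to 6701 in IGF2BP1, were longer than the median of 1068 bases. The architectural chromatin proteins HMGA1 and HMGA2 were at 491.9 per kilobase with 1 match and 71.5 with 4 matches. The RNA-binding proteins IGF2BP1, IGF2BP2 and IGF2BP3 were at 22.3 with 4 matches, 140.4 with 1 and 391.4 with 1, so that these 5 genes lay on both sides of the median of protein-coding genes.

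Of the surface proteins, PROM1 (ENSG00000007062, GRCh37 chr4:15964699-16086001, minus strand, 28 exons) was listed at 0 in all 3 libraries. It shares 2.23% of its exon bases with FGFBP2 on the same strand. Its relative PROM2, which marks membrane protrusions of epithelial cells, had a mean of 4865 ± 19.96 normalized counts (SD, n = 3) from 6177, 5758 and 6151 reads in replicates 1, 2 and 3. Per kilobase PROM2 was at 1028, above CD44 and 4.10 times KLF4. Of the prominin pair, PROM2 was thus abundant and PROM1 was listed at 0 in every library.

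CD44 (ENSG00000026508, GRCh37 chr11:35160429-35253949, plus strand, 18 exons in the canonical transcript) was the most abundant of the 9 genes per kilobase of canonical transcript. It had 1825.0, 1772.9 and 1964.2 normalized counts from 2310, 2095 and 2495 reads, with a mean of 1854 ± 98.9 (SD, n = 3). Replicate 3 was the highest and replicate 2 the lowest. CD44 was the only one of the 4 genes tested whose reads differed between the libraries by more than counting noise, with an adjusted p of 0.00917 by the chi-square test across all genes, against a background of 41.9% of 14646 genes. The call was lost with replicate 2 left out (adjusted p = 0.0539) or replicate 3 left out (adjusted p = 0.532). With edgeR's dispersion added to counting noise 0 of the 4 genes differed, against 0.416% of genes. With the chi-square scaled to the spread of genes of 10 to 50 reads 0 differed, against 3.47%. Both tests took their added spread from these same 3 libraries, so fewer calls follow from how they were set. At an unadjusted p under 0.05 these tests called 0 of the 4, against 5.47% and 12.4% of all genes, and the chi-square test without either change called 1, CD44, against 50.2%. Its coefficient of variation of 5.33% stood beside a median of 3.73% for 3207 genes of like read count. CD44 is made as standard and variant isoforms by splicing of its variable exons, and gene-level counts do not tell these apart.

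**Figure D3:**
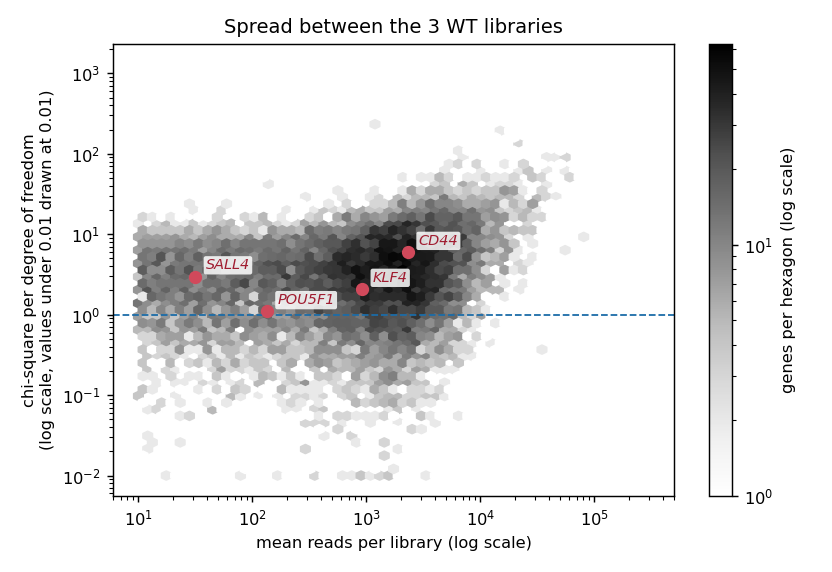
Chi-square per degree of freedom for differences between the 3 WT libraries (y axis, log scale) against mean reads per library (x axis, log scale) for 14646 genes, shaded by the number of genes per hexagon, with the 4 tested pluripotency and stemness genes as red points and the dashed line at 1, the value that counting noise alone gives. CD44 lies at 5.99, SALL4 at 2.98, KLF4 at 2.08 and POU5F1 at 1.10, all within the cloud of other genes.

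Of the genes that act with CD44, 9 of 16 were expressed, with a median of 30.5 normalized counts per kilobase. That was 56.2% of the list, near the 63.9% of protein-coding genes and 47.7% of all genes. The 3 highest were EZR (ezrin, which ties CD44 to actin) at 1846, ESRP2 at 1191 and ESRP1 at 1025 per kilobase. ESRP1 and ESRP2 are epithelial splicing regulators known to favor variant exons of CD44, and both stood above CD44 itself, at 341.4. Of the relatives of EZR, RDX (radixin) was at 966.1 and MSN (moesin) at 61.8. Hyaluronan is the main ligand of CD44, and of its synthases HAS3 was expressed at 29.2 per kilobase, HAS2 was not expressed and HAS1 was listed at 0. Another ligand, SPP1 (osteopontin), had 5, 0 and 4 reads in replicates 1, 2 and 3.

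In order of mean normalized count per kilobase the 9 genes were CD44 at 341.4, KLF4 at 250.5, POU5F1 at 76.3, SALL4 at 4.82, LIN28A at 1.15 and NANOG at 0.373, followed by LIN28B, ZFP42 and PROM1 at 0. On this length each neighbor down to NANOG had a range over the libraries that did not overlap the next, whereas NANOG overlapped the 3 genes listed at 0. The ratio of neighbors was 1.36 from CD44 to KLF4, 3.28 from KLF4 to POU5F1 and 15.8 from POU5F1 to SALL4. The order depends in part on the length used. With the union of all annotated exons KLF4 was at 200.9 and CD44 at 185.6, with ranges that overlapped, and with the coding length SALL4 at 7.96 and LIN28A at 7.28 overlapped as well. The ratio of KLF4 to POU5F1 was 5.14 with the coding length. Among protein-coding genes, 68.7% lay below CD44, 63.0% below KLF4 and 47.3% below POU5F1 per kilobase. Among expressed genes these shares were 52.5%, 43.6% and 18.6%, so that CD44 and KLF4 were of middling and POU5F1 of low abundance.

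Wider lists placed these genes among their networks. Of 27 other genes of the core pluripotency network and its state markers, 6 were expressed (22.2%), against 63.9% of protein-coding genes. These were KLF5, DNMT3B, KLF2, TFCP2L1, ZSCAN10 and NR5A2, the last 3 at 38.7, 33.5 and 24.9 normalized counts per kilobase. With 9 reads or fewer in total were 15, of which 8 were listed at 0, as were 16.3% of protein-coding genes. The 3 highest per kilobase were KLF5 at 294.3, DNMT3B (a de novo DNA methyltransferase) at 177.7 and DPPA5 (an RNA-binding protein of early embryos) at 57.7, the last of which was not expressed at the threshold, with 53, 35 and 54 reads. The median of this list was 0.747 per kilobase, against 98.0 over protein-coding genes. Of 19 other stem and progenitor cell markers with a row, 11 were expressed (57.9%, near the 63.9% of protein-coding genes). Their list had a median of 23.3 per kilobase and was led by the adhesion proteins EPCAM at 1411 and ALCAM at 1279 and by PROM2. LGR5, an intestinal stem cell receptor, was at 108.7 and NES (nestin, of neural progenitors) at 697.4 per kilobase, whereas the basal keratins KRT5 and KRT14 were listed at 0.

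The same chi-square test was read for the lists beside the background of 41.9%. It called 3 of 10 tested genes of the core pluripotency list, 6 of 16 of the LIN28 and let-7 pathway, 6 of 14 of the SALL and NuRD list, 4 of 13 KLF relatives, 2 of 6 POU relatives, 3 of 11 CD44 partners, 4 of 14 other stem cell markers and 1 of 3 copies and relatives. Of the cell type markers it called 7 of 9 luminal, 0 of 1 basal, 2 of 3 fibroblast, 1 of 2 leukocyte and 1 of 2 pluripotent and germ cell genes, and 4 of the 9 luminal genes also differed with the scaled chi-square. These shares describe spread between replicates of 1 condition and carry no direction. The coefficient of variation of POU5F1 was 8.87% beside a median of 13.6% for 1072 genes of like read count, and that of KLF4 was 4.66% beside 5.45% for 2508 genes.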

How the data were processed

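RNA-seq of 3 22Rv1 WT libraries was analysed. The authors aligned 150-bp read pairs to GRCh37/hg19 (HISAT2, GENCODE models), obtained gene counts from HTSeq and normalized these in DESeq2. The files the authors deposited give a gene-level signal, that is, each count over the size factor of its library, to 1 decimal. The annotation release, the strandedness of counting and the handling of multi-mapping reads are not given in the sources used here. Reads were recovered by finding the factor that made the values whole (1.27, 1.18 and 1.27 in replicates 1, 2 and 3; 100.0% whole within 0.05 of a deposited value). Adjacent identical rows were merged, leaving 27024 of 29000 rows. Symbols matched 86.1% of rows.

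The 9 genes, the related lists and the tests were chosen with earlier results of these data known. The genes named beyond the 9 were the 3 highest per kilobase of each list and copies or relatives that bear on a value, except for an item not reported here; others are given for their role in the pathway and were chosen after their values were seen. A chi-square test of homogeneity asked, gene by gene, whether recovered reads differed between libraries given TMM sizes (edgeR 4.0.16, R 4.3.3, scipy 1.17.1). It covered genes averaging 10 reads or more, with Benjamini-Hochberg adjustment over all of them and a threshold of 0.05. The test was checked on simulated reads with counting noise and planted changes only, so the check does not cover the wider spread of these libraries. With 1 group no comparison between conditions was possible. Alternatives were DESeq2 1.42.0 size factors, library totals, other minimum reads and thresholds, added dispersion, a scaled chi-square, other gene lengths and leaving out each replicate; a threshold of 10 CPM and the addition of the copies' reads to POU5F1 were chosen after seeing the data. Lengths and positions came from GENCODE lifted to GRCh37, which may differ from the authors' release, and sequences from RefSeq tables of GRCh38.p14. Depth was 35675670 to 38629080 reads, and floors of 3 reads cover counting error only.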

Additional observations from a re-analysis of the deposited data

How the results depend on the processing

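The number of genes whose reads differed between the WT libraries, 6141 of 14646, depended on the noise model. It was 61 with edgeR's trended dispersion added and 508 with the chi-square scaled to genes of 10 to 50 reads. Both the dispersion and the scale were estimated from these same libraries, so fewer calls follow from how they were set. The number was 3332 to 3950 with 1 replicate left out, where fewer reads are compared. Of the 4 pluripotency and stemness genes tested, 1 (CD44) differed, 0 with the dispersion added, 0 with the scaled chi-square and 0 to 1 with 1 replicate left out. The adjusted p of CD44 was 1.00 with the dispersion and 0.661 when scaled; the cause was not tested.

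The levels per kilobase moved by more than 1 SD with other lengths. With the union of the gene's exons POU5F1 was at 37.5, KLF4 at 200.9 and CD44 at 185.6 normalized counts per kilobase, and with the coding length POU5F1 was at 99.5, NANOG at 2.11, KLF4 at 511.9, LIN28A at 7.28, SALL4 at 7.96 and CD44 at 832.9. The family rank of POU5F1 went from 4 to 5 with either length and that of KLF4 from 6 to 10 with the coding length. The number of the 9 genes expressed was 3, and 2 to 4 under the other thresholds. SALL4, at 0.616 to 1.12 CPM, lay near the threshold of 1 CPM and was added at 0.5 CPM. POU5F1, at 3.19 to 3.81 CPM, was lost only at 10 CPM. In the core pluripotency list 10 genes had a mean of at least 10 reads, against 6 expressed at 1 CPM. Under TMM library sizes or library totals the levels of all 9 genes stayed within 1 SD of the reported level. With a replicate left out a mean over 3 libraries cannot move by more than 1 SD, so that check could not fail. NANOG, at 1.93, ranged from 0.8 to 2.9 with a replicate left out. With POU5F1 credited with the reads of its copies, the number of genes expressed was also 3.

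No paired analysis was possible because only 1 group was analysed. NANOG, with 2, 5 and 0 reads in replicates 1, 2 and 3, was above 3 reads only in replicate 2. A count of 0 cannot be told from a level of up to 3 reads, which applies to the genes listed at 0. EIF4A1, a gene every cell uses, was listed at 0 as well.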
